A study of Mus musculus with 2 samples.

Results

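Nutrient carriers of the solute carrier (SLC) superfamily were described in gastric parietal cells from mice fed a high fat diet (HFD) and from control mice. The carriers were the protein-coding genes whose mouse symbols place them in the SLC families 1, 2, 3, 5, 6, 7, 15, 16, 22, 27, 36, 38 or 43, which move sugars, amino acids, peptides, monocarboxylates, organic ions and fatty acids. This naming rule gave 139 genes among 21160 protein-coding genes and 38087 identifiers in all. It used no measured value. One of the 139, Slc7a6os, is named after the carrier gene Slc7a6 but encodes no carrier, and leaving it out changed no count over 2-fold.

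The cells were sorted from the stomachs of C57BL/6 mice, with 1 library of rRNA-depleted total RNA from HFD mice (HFD cells below) and 1 from control mice (control cells). The labels name no genetic change in either group. For the diets' composition, the feeding time, the age and sex of the mice, the number pooled per library and the sorting markers, nothing was given in the sources used here. The values are RPKM, read numbers scaled by gene length and library depth, deposited as log2, and a gene at or below 1 RPKM is listed as 0. With 1 library per group no difference can be tested, so every difference below is one between 2 libraries. The 95% intervals come from read numbers estimated from the RPKM, the exon length and the depth. Variation between mice is outside them, since they count reads only.

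The steps between low values put the depth at 25.5 M reads in HFD cells and 9.84 M in control cells, so that 1 RPKM of a 2 kb gene stood for about 51 and 19.7 reads. The proton pump genes Atp4a and Atp4b, which define the parietal cell, stood at 4997 and 5639 RPKM in HFD cells and at 4324 and 4375 RPKM in control cells. Of 18 parietal genes 14 were higher in HFD cells as deposited, 4 of them over 2-fold (Kcnj16, Slc26a7, Aqp4 and Hrh2), and their sums were 13901 and 10951 RPKM (1 and none at 0). The 4 lower ones included Cckbr (0 and 3.67 RPKM) and Chrm3 (2.90 and 6.24 RPKM). These counts depend on the scale too. On the log2(RPKM + 1) scale Atp4a differed by 0.21 and Atp4b by 0.37, less than the largest shift of scale used below (-0.62). Markers of other cells were present too. The summed level of 12 pancreatic acinar genes was 1831 RPKM in HFD cells, where 9 were listed at 0, against 13741 RPKM in control cells, where none was. Most of both sums was the single gene Clps, at 1790 and 12989 RPKM. For 10 endocrine genes the sums were 1215 and 8322 RPKM (3 and 1 at 0), for 7 fibroblast genes 46.9 and 143 RPKM (2 and none at 0), for 6 smooth muscle genes 25.6 and 179 RPKM (none at 0) and for 8 proliferation genes 75.8 and 200 RPKM (none at 0). For 6 pit cell genes, of the surface mucous cells, they were 36056 RPKM in HFD cells and 14519 RPKM in control cells (1 and none at 0), and for 5 chief cell genes 46051 and 102874 RPKM (1 at 0 in each). The chief cell sums were nearly all Pgc, at 45624 and 102292 RPKM. Of the 4 chief cell genes listed, 3 were lower in HFD cells, Gif at 397 and 494 RPKM, and Bhlha15 was higher at 10.1 and 8.24 RPKM. For 8 leukocyte genes the sums were 36.2 and 11.0 RPKM (4 and 3 at 0), with 4 of the 5 listed over 2-fold higher in HFD cells and the pan-leukocyte gene Ptprc at 0 in both libraries. The part of these cells in the carrier values was not tested, and in a bulk library fewer cells of a type and less RNA per cell cannot be told apart.

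SLC carriers are membrane proteins that let a solute follow its own gradient, exchange it for another solute, or couple it to sodium or proton gradients. Glucose enters most cells through the facilitative carriers of the Slc2 family and is pumped uphill by some members of Slc5. Large neutral amino acids are exchanged by pairs of a heavy chain (Slc3) and a light chain (Slc7), while Slc1, Slc6, Slc36 and Slc38 proteins use ion gradients to take amino acids up or to move them out of lysosomes. The parietal cell, which is packed with mitochondria to drive its proton pump, depends on a steady supply of fuel from the blood.

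Of the 139 genes, 67 were listed above 0 in at least 1 library, 51 of them in both, 4 in HFD cells alone and 12 in control cells alone. The other 72 were at or below 1 RPKM in both. The families differed in how many members were seen, from 2 of 2 for Slc3, 5 of 6 for Slc27 and 7 of 11 for Slc38 to 5 of 21 for Slc6 and 1 of 5 for Slc15. The remaining families gave 7 of 12 for Slc2, 6 of 13 for Slc5, 9 of 16 for Slc7, 2 of 3 for Slc43, 4 of 7 for Slc1, 2 of 4 for Slc36, 8 of 14 for Slc16 and 9 of 25 for Slc22. Among those unseen in both libraries were the cystine carrier gene Slc7a11, the glucose carrier genes Slc2a2 and Slc2a3, the intestinal peptide carrier gene Slc15a1 and the kidney and gut amino acid carrier gene Slc6a19.

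A carrier counted as over 2-fold different when log2(RPKM + 1) differed by more than 1 between the libraries. By this measure 6 of the 67 genes (8.96%) were higher and 14 (20.9%) lower in HFD cells, against 8.02% and 20.1% of all 11976 protein-coding genes listed in either library. Both shares lay near this background. A gene listed in a single library passes 2-fold by construction, which accounts for 4 of the 6 and 12 of the 14. The remaining genes were Slc5a5 and Slc6a20a, higher in HFD cells, and Slc7a5 and Slc38a7, lower there. These were also the ones whose whole interval lay beyond 2-fold, 2 of 51 genes listed in both (3.92%) in each direction, against 4.08% higher and 8.73% lower of 9997 protein-coding genes listed in both. The 2 higher genes lost the call when both libraries were set to the sum of all but their 20 most abundant genes (the trimmed scale), where Slc5a5 differed by 0.89 and Slc6a20a by 0.64 on the log2(RPKM + 1) scale. The 2 lower genes kept it there, Slc7a5 at -1.67 and Slc38a7 at -1.74.

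The median difference of the 67 genes was 0.02 on the log2(RPKM + 1) scale, against -0.11 for all protein-coding genes. In HFD cells 35 genes were higher (52.2%, against 44.0% of all protein-coding genes) and 32 lower. Among the 33 carriers that reached 5 RPKM in either library the median was 0.27 with 24 higher (72.7%), against -0.04 and 47.5% of 7773 protein-coding genes above the same level. These signs depend on the scale. On the trimmed scale, which adds -0.62 to the log2 HFD values, 14 of the 67 were higher (20.9%), against 18.4% of all protein-coding genes. The median there was -0.48, against -0.62 for all protein-coding genes. With coding genes brought to equal totals 38 of the 67 were higher (56.7%), against 56.9% of all protein-coding genes, and the medians were 0.27 and 0.14. Of the 51 carriers listed in both libraries, 10 were higher as deposited and under each of 3 other scalings, 17 were lower under all 4, and the sign of 24 depended on the scaling. A kept sign can be a near tie: on the trimmed scale Slc7a8 differed by 0.02, Slc22a5 by 0.05 and Slc2a4 by 0.09 on the log2(RPKM + 1) scale. The 10 were Slc2a4, Slc2a12, Slc5a5, Slc6a8, Slc6a20a, Slc7a6, Slc7a8, Slc16a5, Slc22a5 and Slc38a9. The 17 were Slc1a3, Slc1a4, Slc1a5, Slc5a2, Slc5a3, Slc5a6, Slc6a9, Slc7a1, Slc7a4, Slc7a5, Slc16a6, Slc16a9, Slc16a10, Slc16a11, Slc38a1, Slc38a3 and Slc38a7.

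**Figure D1:**
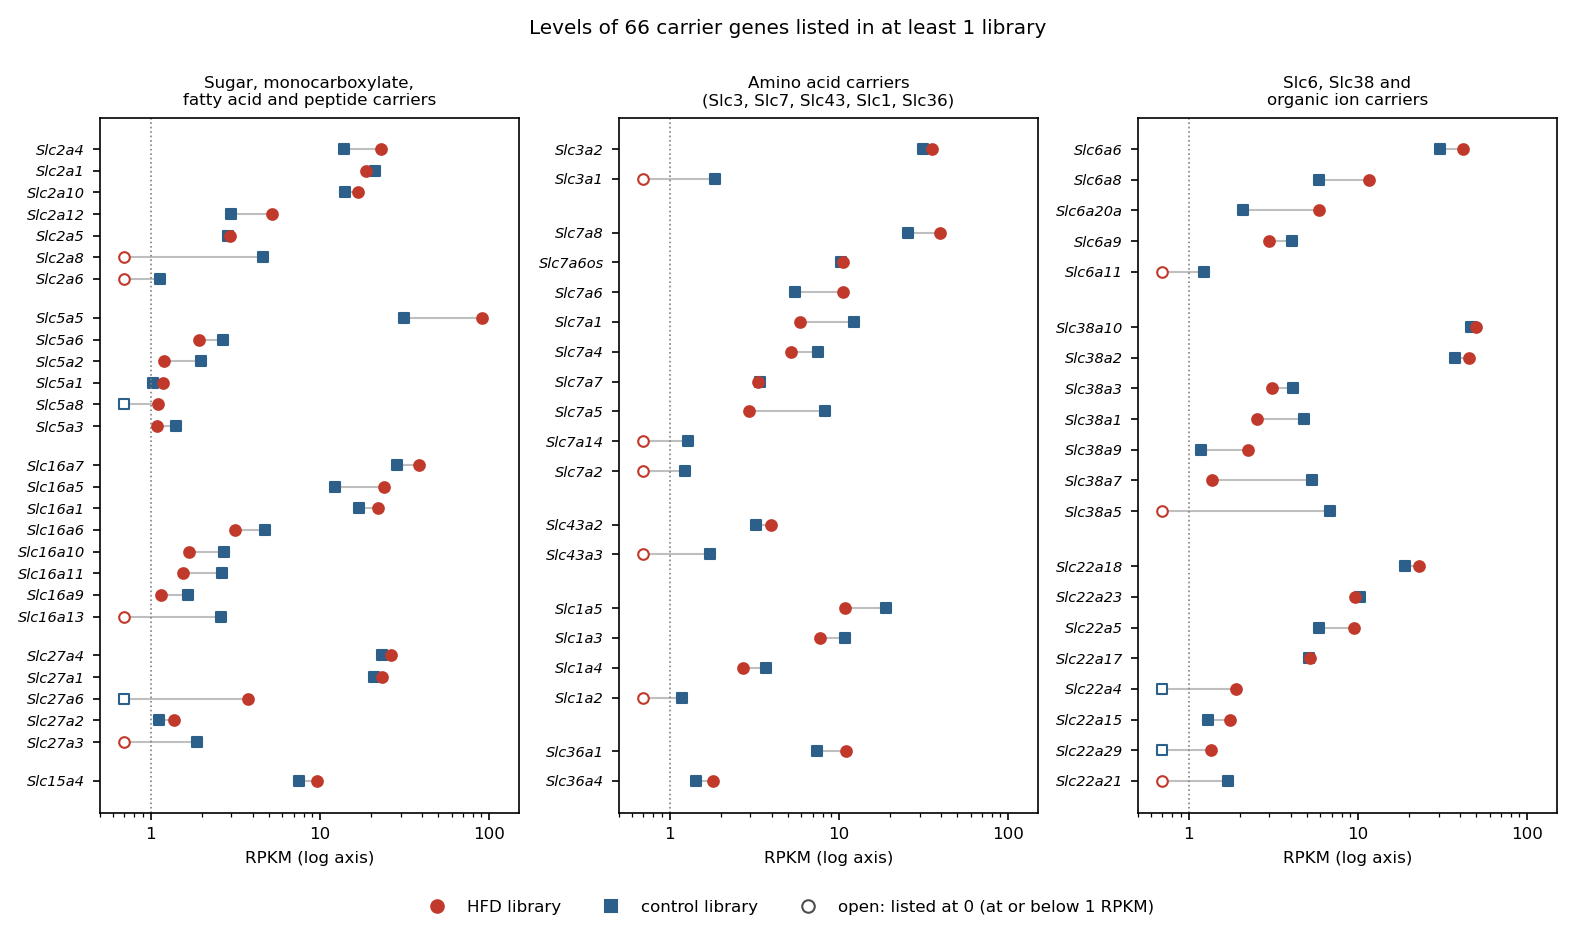
Level of 66 of the 67 listed carrier genes in RPKM on a log axis, by family, with circles for the HFD library and squares for the control library and open symbols, drawn left of the dotted line at 1 RPKM, for a gene listed at 0. Slc5a5 at 91.2 RPKM in HFD cells lies furthest right, and the 16 genes with an open symbol lie below 7 RPKM in the other library.

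The most abundant carrier genes were much the same in both libraries. In the HFD library Slc5a5 led at 91.2 RPKM (interval 89.0 to 93.3), followed by Slc38a10 at 49.8 (48.8 to 50.9), Slc38a2 at 45.3 (44.4 to 46.1), Slc6a6 at 41.8 (41.0 to 42.7), Slc7a8 at 39.8 (38.7 to 40.9), Slc16a7 at 38.3 (37.6 to 39.0) and Slc3a2 at 35.5 RPKM (34.3 to 36.8). In the control library the order was Slc38a10 at 46.5 RPKM (44.8 to 48.2), Slc38a2 at 37.2 (35.96 to 38.5), Slc5a5 at 31.5 (29.4 to 33.6), Slc3a2 at 31.2 (29.4 to 33.1), Slc6a6 at 30.7 (29.6 to 32.0), Slc16a7 at 28.4 (27.4 to 29.4) and Slc7a8 at 25.4 RPKM (24.0 to 26.9). The intervals of Slc7a8 and Slc16a7 overlap in HFD cells, and those of Slc5a5, Slc3a2 and Slc6a6 overlap in control cells, so their order there is not resolved. Of the 10 highest genes of each library 9 were shared, with Slc16a5 present only in the HFD list and Slc2a1 only in the control list. These 10 held 59.6% of the carriers' summed RPKM in HFD cells and 51.02% in control cells. The sums over all carriers were 697 and 580 RPKM, or 606 and 549 RPKM without Slc5a5, a gene left out here after its values were seen.

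Among the sodium-coupled carriers of Slc5, Slc5a5 stood apart in level. This gene encodes the sodium iodide symporter, which concentrates iodide in the thyroid and is also made in the gastric mucosa. It stood at 91.2 RPKM in HFD cells and 31.5 RPKM in control cells, a ratio of 2.90 (2.70 to 3.11), and was at the 97.7th and 90.1st percentile of the coding genes listed in either library. The pit cell genes Gkn1 (21736 and 5021 RPKM) and Gkn2 (8091 and 3406 RPKM) were likewise higher in HFD cells, while the pit cell genes Tff1 (2960 and 3003 RPKM) and Psca (2730 and 2675 RPKM) were close to equal, and their part in the Slc5a5 value was not tested. The other Slc5 genes were near the floor of 1 RPKM. The multivitamin carrier gene Slc5a6 stood at 1.92 RPKM in HFD cells and 2.68 in control cells, a ratio of 0.717 (0.565 to 0.922), and Slc5a3, which carries the osmolyte myo-inositol, at 1.09 and 1.40 RPKM, a ratio of 0.775 (0.635 to 0.947). Of the exon bases of Slc5a6, 9.92% lie opposite Atraid (4.20 and 11.9 RPKM), and 13.6% of its transcript 50-mers also occur in Gm6157. The glucose pumps of gut and kidney were faint. Slc5a1 stood at 1.18 RPKM in HFD cells and 1.03 in control cells, a ratio of 1.14 whose interval includes 1 (0.790 to 1.64), and Slc5a2 at 1.2 and 1.996 RPKM, a ratio of 0.601 (0.427 to 0.855). Slc5a2 shares 20.6% of its exon bases with BC017158 on the opposite strand (9.38 and 8.70 RPKM), and since the counting rule is not given, reads of the pair cannot be told apart. Slc5a8, a sodium-coupled monocarboxylate carrier, was at 1.10 RPKM in HFD cells and listed at 0 in control cells.

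Slc6a20a, which encodes a carrier of proline and other imino acids, was the other gene listed in both libraries and over 2-fold higher as deposited. It stood at 5.90 RPKM in HFD cells and 2.10 in control cells, a ratio of 2.81 (2.24 to 3.59). Of its transcript 50-mers, 15.3% also occur in its neighbour Slc6a20b, which was listed at 0 in both libraries. Of the exon bases of Slc6a20a, 13.8% are shared with the antisense gene Gm17120, listed at 0 in HFD cells and at 2.05 RPKM in control cells.

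The lower genes Slc7a5 and Slc38a7 both serve glutamine or large neutral amino acids. Slc7a5, the light chain of the leucine exchanger LAT1, stood at 2.94 RPKM in HFD cells and 8.28 in control cells, a ratio of 0.355 (0.301 to 0.419). Slc38a7, known as a lysosomal exporter of glutamine, stood at 1.37 and 5.32 RPKM, a ratio of 0.257 (0.207 to 0.320). Neither shares exon bases with another annotated gene.

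**Figure D2:**
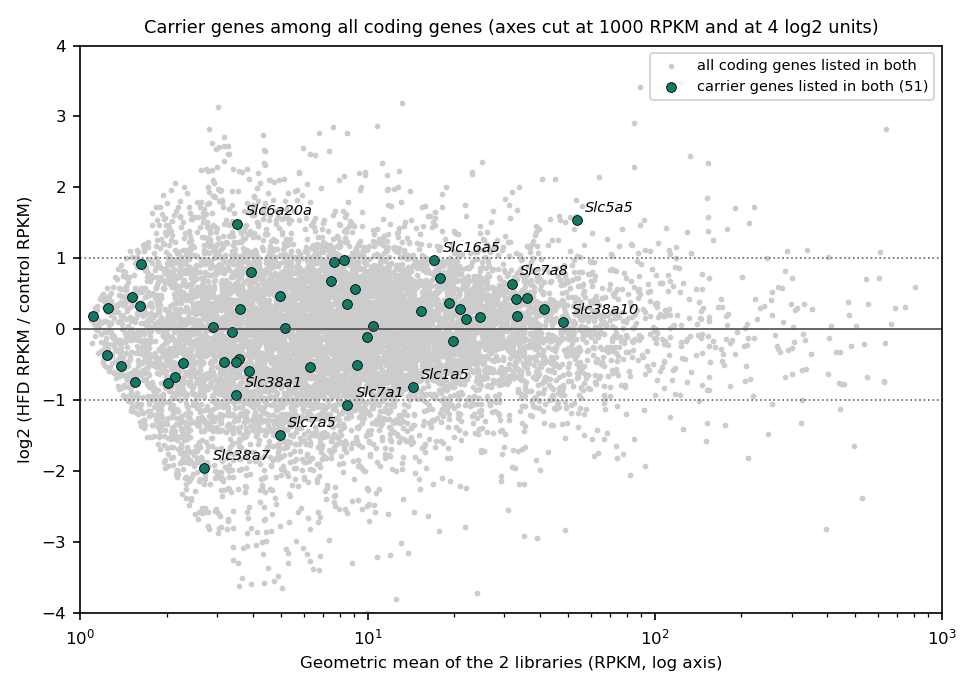
log2 of the ratio of HFD to control RPKM against the geometric mean level of the 2 libraries in RPKM (log axis), for all protein-coding genes listed in both libraries (grey) and the 51 carriers among them (green), with dotted lines at 2-fold and a few of the grey genes outside the axes. Slc5a5 and Slc6a20a lie clearly above the upper line, Slc7a5 and Slc38a7 clearly below the lower one, and Slc7a1 just below it (ratio 0.478).

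The promoter windows of Slc5a5, Slc6a20a and Slc38a7, from 250 bases before to 50 after a RefSeq start on GRCm38.p6, are shown because the whole interval of these genes lay beyond 2-fold. Slc7a5 met the same rule, but no window was available for it, so its promoter was not searched. Each is written 5′ to 3′ on the gene's own strand, with capitals marking a match to 1 of 4 motifs searched on both strands. The motifs were the amino acid response sequence TGATGCAAT, the composite C/EBP and ATF sequence TTGCATCA, whose reverse complement overlaps the first, the E-box CACGTG and the cyclic AMP response element TGACGTCA. Slc5a5 lies at chr8:70892708-70893007, Slc6a20a at chr9:123678783-123679082 and Slc38a7 at chr8:95853442-95853741, all on the minus strand.
Slc5a5: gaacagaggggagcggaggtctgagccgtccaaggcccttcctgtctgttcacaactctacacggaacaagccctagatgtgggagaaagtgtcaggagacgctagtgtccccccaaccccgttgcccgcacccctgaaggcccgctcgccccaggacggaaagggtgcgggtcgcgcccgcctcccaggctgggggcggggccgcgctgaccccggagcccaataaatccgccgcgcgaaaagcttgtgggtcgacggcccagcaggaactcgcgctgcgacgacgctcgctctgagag
Slc6a20a: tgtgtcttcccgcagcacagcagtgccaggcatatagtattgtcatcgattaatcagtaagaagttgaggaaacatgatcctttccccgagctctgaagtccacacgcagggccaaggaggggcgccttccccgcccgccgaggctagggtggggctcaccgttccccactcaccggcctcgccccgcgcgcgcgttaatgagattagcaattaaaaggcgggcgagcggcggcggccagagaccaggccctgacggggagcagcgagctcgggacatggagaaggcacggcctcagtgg
Slc38a7: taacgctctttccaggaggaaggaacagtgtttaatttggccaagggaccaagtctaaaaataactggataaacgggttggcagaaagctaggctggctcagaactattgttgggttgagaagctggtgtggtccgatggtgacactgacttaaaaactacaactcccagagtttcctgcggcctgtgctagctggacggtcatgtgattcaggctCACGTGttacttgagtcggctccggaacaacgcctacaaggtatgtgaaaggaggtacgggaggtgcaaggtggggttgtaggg

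The windows of Slc5a5 and Slc6a20a are rich in G and C (67% and 62.3%) and hold 29 and 25 CpG dinucleotides, against medians of 62.0% and 18 over 61 windows of the listed carriers and of 52.7% and 7 over 32851 RefSeq windows. Slc6a20a thus lies at the G and C content of the carriers in general. None of the 4 motifs is in them. Slc38a7 (50.3% G and C, 10 CpG) holds 1 E-box. Windows were found for 49 of the 67 listed carriers, and 8 of these (16.3%) hold an E-box, against 8.09% of 27025 genes of the table. They are Slc5a1, Slc7a14, Slc16a1, Slc22a4, Slc27a1, Slc36a1, Slc38a5 and Slc38a7, which differ in their direction between the libraries. CACGTG itself holds a CpG, and the carriers' windows hold more CpG (median 18 against 7). The E-box shares were not matched for base composition, so the part of composition in them was not tested. TTGCATCA is in 2 of the 49 (Slc1a4 and Slc7a7), against 1.03% of genes, and the other motifs are in none, against 0.222% for TGATGCAAT and 2.03% for TGACGTCA. A match is a run of letters and not a shown binding site.

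The facilitative sugar carriers were led by Slc2a4, Slc2a1 and Slc2a10. Slc2a4, the insulin-responsive glucose carrier GLUT4 of muscle and fat, stood at 22.97 RPKM in HFD cells and 13.9 in control cells, a ratio of 1.65 (1.49 to 1.83). Slc2a1, the widely expressed GLUT1, stood at 18.8 and 21.02 RPKM, a ratio of 0.894 (0.819 to 0.977) whose sign depended on the scaling. GLUT4 transcripts were thus above GLUT1 in HFD cells and below it in control cells, and none of these 4 intervals (21.98 to 23.99 and 17.9 to 19.7 RPKM in HFD cells, 12.7 to 15.2 and 19.5 to 22.6 RPKM in control cells) overlapped its partner in the same library. Slc2a10, the GLUT10 gene, whose loss in humans causes arterial tortuosity, stood at 16.9 and 14.0 RPKM, a ratio of 1.203 (1.08 to 1.33). Slc2a12, a glucose carrier gene of insulin-sensitive tissues, was higher, with 5.21 RPKM in HFD cells, 2.97 RPKM in control cells and a ratio of 1.76 (1.44 to 2.15), although 9.61% of its exon bases lie opposite Tbpl1 (13.3 and 4.33 RPKM). The fructose carrier gene Slc2a5 was at 2.93 and 2.86 RPKM, a ratio of 1.02 (0.804 to 1.30). Slc2a8 and Slc2a6, carriers of intracellular membranes, were listed at 0 in HFD cells and at 4.598 and 1.13 RPKM in control cells.

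Carriers of lactate, pyruvate and related acids split by level. The 3 abundant Slc16 genes were higher in HFD cells, and the 4 fainter ones listed in both were lower, each with an interval on 1 side of equality, but Slc16a1 and Slc16a7 turned lower on the trimmed scale. Slc16a7, the high-affinity pyruvate and lactate carrier MCT2, stood at 38.3 RPKM in HFD cells and 28.4 in control cells, a ratio of 1.35 (1.30 to 1.40). Slc16a1, the lactate carrier MCT1, stood at 21.9 and 16.9 RPKM, a ratio of 1.30 (1.19 to 1.41). Slc16a5, or MCT6, whose natural substrates are less clear, stood at 24.0 and 12.2 RPKM, a ratio of 1.96 (1.77 to 2.18). Among the fainter genes, Slc16a10, which carries aromatic amino acids, was at 1.69 and 2.70 RPKM (ratio 0.627, 0.523 to 0.754) and Slc16a11 at 1.55 and 2.62 RPKM (ratio 0.591, 0.429 to 0.818). Slc16a6 was at 3.16 and 4.74 RPKM, a ratio of 0.666 (0.563 to 0.786), with 21.5% of its exon bases opposite Amz2 (3.62 and 4.63 RPKM). Slc16a9 was at 1.15 and 1.66 RPKM, a ratio of 0.697 (0.509 to 0.965). Of its exon bases 12.7% lie opposite the antisense gene Gm7097, listed at 0 in both. Also, 10.8% lie opposite the pseudogene Gm9877, listed at 1.49 RPKM in HFD cells and at 0 in control cells. Slc16a13 was listed at 0 in HFD cells and at 2.60 RPKM in control cells, and Slc16a3, the export carrier of glycolytic cells, was listed at 0 in both. Basigin (Bsg), the partner that brings MCT1 to the cell surface, stood at 168 RPKM in HFD cells and 273 in control cells, a ratio of 0.617 (0.596 to 0.640), and embigin (Emb), the partner of MCT2, at 3.59 and 3.84 RPKM, a ratio of 0.936 (0.809 to 1.08). The lactate dehydrogenase genes Ldha (109 and 96.6 RPKM) and Ldhb (86.3 and 64.1 RPKM) had ratios of 1.13 (1.09 to 1.18) and 1.35 (1.25 to 1.45).

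Fatty acid transport proteins activate fatty acids to acyl-CoA as they bring them into the cell. Slc27a4 stood at 26.3 RPKM in HFD cells and 23.2 in control cells, a ratio of 1.13 (1.06 to 1.22). Slc27a1 stood at 23.2 and 20.9 RPKM, a ratio of 1.11 (1.04 to 1.19), and both turned lower on the trimmed scale. Slc27a6, known from heart, was listed at 3.76 RPKM in HFD cells and at 0 in control cells, the largest difference of this direction on the log2(RPKM + 1) scale. Slc27a2, the liver and kidney form, was near the floor at 1.38 and 1.12 RPKM, with a ratio of 1.23 (0.869 to 1.81), and Slc27a3 was listed at 0 in HFD cells and at 1.87 RPKM in control cells. Other genes of lipid uptake went both ways, with 1 of 10 over 2-fold higher and 3 lower, against 8.02% and 20.1% of all coding genes. Their median was -0.45, against -0.11 for all coding genes. The fatty acid receptor gene Cd36 stood at 58.2 and 24.6 RPKM, a ratio of 2.37 (2.21 to 2.55), and lipoprotein lipase (Lpl), which frees fatty acids from blood lipoproteins, at 74.3 and 42.3 RPKM, a ratio of 1.76 (1.70 to 1.82). The binding protein gene Fabp3 was lower, with 1.996 RPKM in HFD cells, 9.16 RPKM in control cells and a ratio of 0.218 (0.146 to 0.324). Fabp4, of fat and endothelial cells, was lower at 6.03 against 16.7 RPKM, and Cav1, of caveolae, was listed at 0 in HFD cells against 3.75 RPKM in control cells, beside 5 endothelial genes whose levels summed to 4.61 and 17.3 RPKM (2 and 1 at 0).

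**Figure D3:**
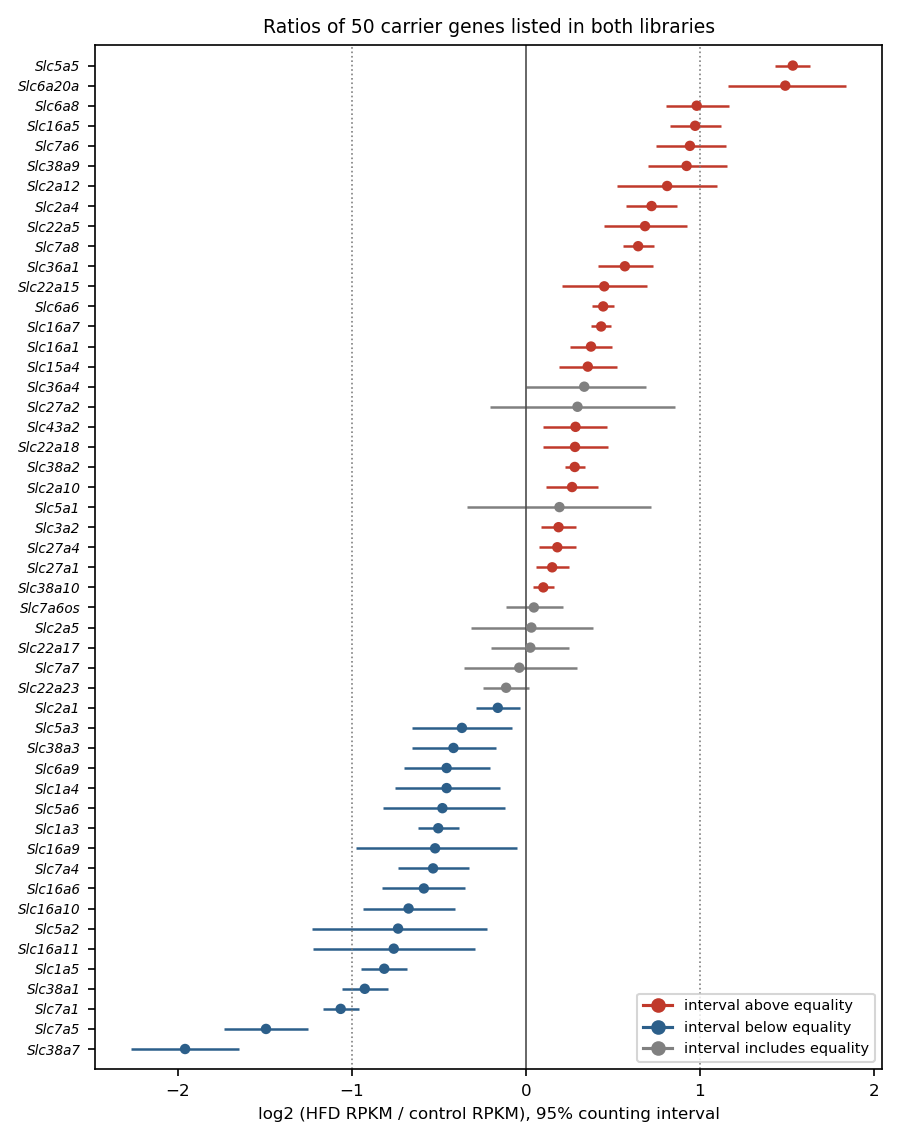
log2 of the ratio of HFD to control RPKM for 50 of the 51 carriers listed in both libraries, in order, with bars for the 95% counting interval. The interval of the genes drawn lay above equality for 24, below it for 18 and included it for 8, and 4 genes lie wholly beyond the dotted lines at 2-fold. Of all 9997 coding genes listed in both, 37.8% had an interval above equality and 42.1% below it.

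The heavy chain gene Slc3a2, whose product takes several Slc7 light chains to the membrane, stood at 35.5 RPKM in HFD cells and 31.2 in control cells, a ratio of 1.14 (1.06 to 1.22) that turned lower on the trimmed scale. Its light chains differed more. Slc7a8, the LAT2 chain of epithelia, stood at 39.8 and 25.4 RPKM, a ratio of 1.56 (1.47 to 1.67). Slc7a6, which exchanges cationic for neutral amino acids, stood at 10.6 and 5.50 RPKM, a ratio of 1.92 (1.68 to 2.22), and its relative Slc7a7 at 3.32 and 3.41 RPKM, a ratio of 0.9746 (0.781 to 1.23). Slc7a5 went the other way, as given above. As a share of the 6 light chains summed per length, Slc7a8 held 70.3% in HFD cells and 59.7% in control cells, and Slc7a5 5.19% and 19.4%. The summed light chains came to 56.6 and 42.6 RPKM, which is 1.59 and 1.37 times the heavy chain. The second heavy chain gene, Slc3a1 of kidney and gut, was listed at 0 in HFD cells and at 1.85 RPKM in control cells, but 26.5% of its exon bases lie opposite Prepl (12.8 and 12.2 RPKM). Slc7a6os, beside Slc7a6, stood at 10.6 and 10.2 RPKM, a ratio of 1.03 (0.924 to 1.16).

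**Figure D4:**
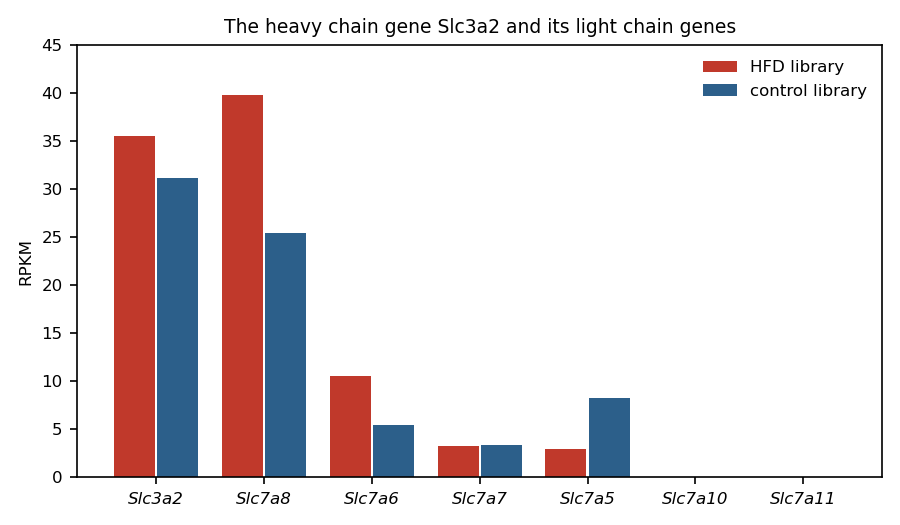
Level in RPKM of the heavy chain gene Slc3a2 and 6 light chain genes, with red bars for the HFD library and blue bars for the control library, 1 library each. Slc7a8 and Slc7a6 are higher and Slc7a5 lower in HFD cells, and Slc7a10 and Slc7a11 are listed at 0 in both.

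The cationic and remaining members of Slc7 were mostly lower. Slc7a1, the general arginine and lysine carrier CAT1, stood at 5.88 RPKM in HFD cells and 12.3 in control cells, a ratio of 0.478 (0.445 to 0.514). Slc7a4, an orphan relative, stood at 5.23 and 7.56 RPKM, a ratio of 0.691 (0.601 to 0.798), with 13.3% of its exon bases opposite P2rx6, listed at 0 in both. Slc7a2, a cationic carrier gene induced in activated macrophages, and Slc7a14 were listed at 0 in HFD cells and at 1.23 and 1.29 RPKM in control cells. Of the Slc43 facilitators, Slc43a2, which exports large neutral amino acids, stood at 3.96 and 3.25 RPKM, a ratio of 1.22 (1.07 to 1.38), and Slc43a3, a nucleobase carrier gene, was listed at 0 in HFD cells and at 1.73 RPKM in control cells.

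All 4 listed Slc1 genes were lower in HFD cells, and the 3 listed in both stayed lower under the 3 other scalings. Slc1a5, the glutamine carrier ASCT2 of dividing and epithelial cells, stood at 10.9 RPKM in HFD cells and 19.1 in control cells, a ratio of 0.569 (0.519 to 0.624). Its relative Slc1a4, which carries alanine, serine and cysteine, stood at 2.71 and 3.72 RPKM, a ratio of 0.730 (0.595 to 0.902). Slc1a3, a glutamate and aspartate carrier, stood at 7.71 and 10.9 RPKM, a ratio of 0.706 (0.651 to 0.766). Slc1a2, the main glutamate carrier gene of brain astrocytes, was listed at 0 in HFD cells and at 1.19 RPKM in control cells. Of 8 proliferation genes 7 were lower in HFD cells too, and their part in these values was not tested.

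The Slc38 family held a pair of very abundant carriers. Slc38a10, an amino acid carrier gene, stood at 49.8 RPKM in HFD cells and 46.5 in control cells, a ratio of 1.07 (1.03 to 1.12). Slc38a2, the stress-induced system A carrier SNAT2, stood at 45.3 and 37.2 RPKM, a ratio of 1.22 (1.17 to 1.26), and both turned lower on the trimmed scale. Slc38a1 and Slc38a3, further glutamine carrier genes, were lower in HFD cells. Slc38a1 stood at 2.53 and 4.81 RPKM (ratio 0.526, 0.481 to 0.577) and Slc38a3 at 3.09 and 4.12 RPKM (ratio 0.7497, 0.634 to 0.889). Slc38a5, a glutamine and serine carrier gene, was listed at 0 in HFD cells and at 6.83 RPKM in control cells, the largest difference among the carriers on the log2(RPKM + 1) scale (-2.97). The 12 pancreatic acinar genes and 8 of 9 listed endocrine genes were lower in HFD cells too, and their part in the Slc38a5 value was not tested.

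Carriers of the lysosomal membrane went in different directions. Slc38a9, which senses lysosomal arginine for the growth kinase complex mTORC1, stood at 2.24 RPKM in HFD cells and 1.18 in control cells, a ratio of 1.90 (1.63 to 2.23). Slc36a1, a proton-coupled exporter of small amino acids, stood at 11.0 and 7.43 RPKM, a ratio of 1.48 (1.33 to 1.66). Slc36a4 stood at 1.81 and 1.44 RPKM, with a ratio of 1.26 whose interval includes 1 (0.9996 to 1.62). Slc15a4, which carries histidine and small peptides, stood at 9.60 and 7.499 RPKM, a ratio of 1.28 (1.14 to 1.44), and was the only listed peptide carrier of 5. Slc36a1, Slc36a4 and Slc15a4 turned lower on the trimmed scale, whereas Slc38a9 did not. The lysosomal glutamine exporter Slc38a7, at 0.257 of its control level, was lower in all scalings, and Slc7a14, also of lysosomes, was listed only in control cells. Among 28 genes of amino acid sensing by mTORC1, 27 were listed, with a median of 0.09, against -0.11 for all coding genes. Over 2-fold higher were 2 (7.41%) and lower 2 (7.41%), against 8.02% and 20.1% of all coding genes. Of the 5 Ragulator genes, which anchor the sensor to the lysosome, 2 were higher and 3 lower in HFD cells. Lamtor1 stood at 49.5 and 10.8 RPKM (ratio 4.56, 4.08 to 5.11) and Lamtor5 at 16.4 and 3.82 RPKM (ratio 4.30, 3.03 to 6.38). Lamtor4 stood at 7.68 and 17.0 RPKM (ratio 0.453, 0.377 to 0.546), Lamtor2 at 9.27 and 16.8 RPKM (ratio 0.552, 0.460 to 0.665) and Lamtor3 at 6.42 and 7.86 RPKM (ratio 0.817, 0.714 to 0.935). Mtor itself stood at 22.96 and 21.5 RPKM, a ratio of 1.07 (1.02 to 1.12).

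The 5 listed Slc6 genes, of 21, are carrier genes for taurine, creatine, glycine, GABA and imino acids (Slc6a20a, given above). Slc6a6, the taurine carrier gene, stood at 41.8 RPKM in HFD cells and 30.7 in control cells, a ratio of 1.36 (1.30 to 1.42) that turned lower on the trimmed scale. Slc6a8, the creatine carrier gene, stood at 11.6 and 5.88 RPKM, a ratio of 1.98 (1.75 to 2.247), higher in every scaling, beside brain-type creatine kinase (Ckb) at 109 and 118 RPKM. Slc6a9, a glycine carrier gene, stood at 2.97 and 4.07 RPKM, a ratio of 0.730 (0.615 to 0.869). However, 27.8% of its exon bases lie opposite Ccdc24 (2.01 and 1.18 RPKM) and 9.94% opposite Gm17114 (6.72 and 3.67 RPKM). Slc6a11, a carrier gene for the transmitter GABA, was listed at 0 in HFD cells and at 1.23 RPKM in control cells.

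Organic ion carriers of Slc22 reached moderate levels in both groups. Slc22a18, an imprinted gene of unclear substrate, stood at 23.1 RPKM in HFD cells and 19.0 in control cells, a ratio of 1.22 (1.07 to 1.39). Slc22a23, another orphan, stood at 9.57 and 10.3 RPKM, a ratio of 0.925 whose interval includes 1 (0.843 to 1.015). Slc22a5 encodes OCTN2, which brings in the carnitine that long-chain fatty acids need to enter mitochondria, and stood at 9.47 and 5.89 RPKM, a ratio of 1.61 (1.36 to 1.90) that came close to equality on the trimmed scale. Its tandem neighbour Slc22a21, a carnitine carrier gene of the mouse, was listed at 0 in HFD cells and at 1.72 RPKM in control cells, and the genes share 26.1% of the Slc22a5 transcript 50-mers, so that their single values are uncertain. The third gene of this cluster, Slc22a4, which carries ergothioneine, stood at 1.89 RPKM in HFD cells and was listed at 0 in control cells. Slc22a17, a receptor gene for lipocalin, stood at 5.21 and 5.12 RPKM, a ratio of 1.02 (0.872 to 1.19). Slc22a15 was at 1.77 and 1.29 RPKM, a ratio of 1.37 (1.16 to 1.62). Slc22a29 was at 1.35 RPKM in HFD cells and listed at 0 in control cells, and it shares 22.98% of its 50-mers with Slc22a27, listed at 0 in both.

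**Figure D5:**
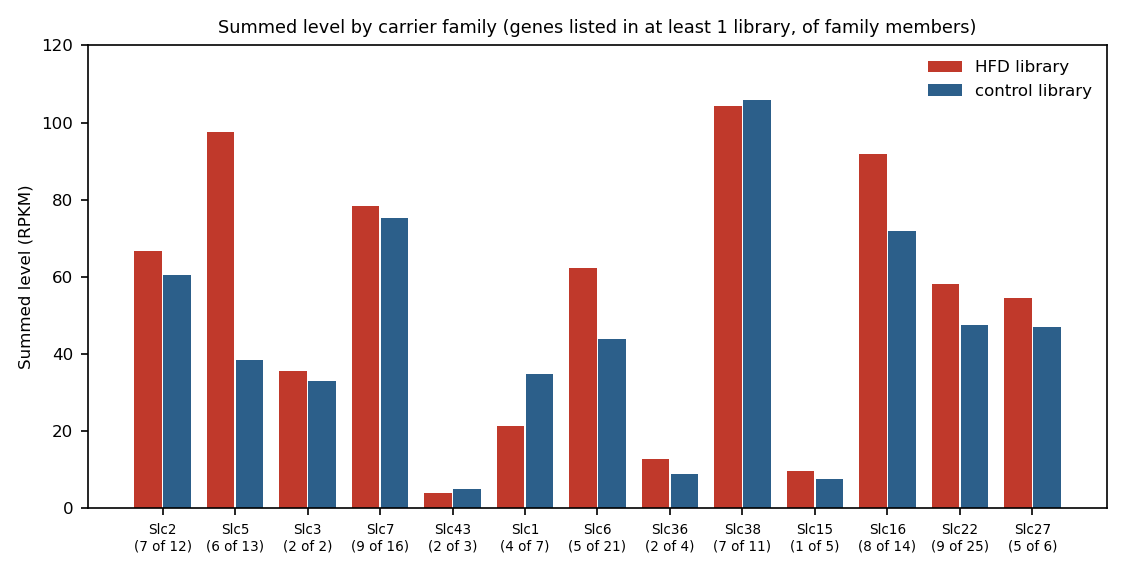
Summed RPKM of each carrier family, with red bars for the HFD library and blue bars for the control library, and the number of listed members of the family below. Slc5 differs most (97.6 against 38.6 RPKM, of which Slc5a5 holds 91.2 and 31.5), Slc1 is lower in HFD cells (21.3 against 34.9 RPKM), and Slc38 is nearly level (104 against 106 RPKM).

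Carriers known as targets of ATF4, the transcription factor of amino acid shortage, split in direction. Of 9 such genes 7 were listed, with 2 higher (Slc3a2 and Slc38a2) and 5 lower (Slc7a5, Slc7a1, Slc1a5, Slc1a4 and Slc6a9). None was over 2-fold higher and 1 was over 2-fold lower (14.3%), against 8.02% and 20.1% of all coding genes. Their median was -0.35, and the 2 higher ones turned lower on the trimmed scale. Of the first enzymes that act on the imported fuels 23 were listed, none over 2-fold higher and 3 lower (13.0%), against 8.02% and 20.1% of all coding genes, with a median of 0.08. The intervals of the 21 listed in both all lay off equality, 12 above and 9 below. Of the 9997 coding genes listed in both, 37.8% had an interval above equality and 42.1% below it, so most genes lie off equality at this depth. Hexokinase 2 (Hk2), which traps glucose in muscle and dividing cells, was lower at 3.06 and 7.63 RPKM, with a ratio of 0.401 (0.352 to 0.458). Acsl3, which activates long-chain fatty acids, was higher at 20.7 and 11.0 RPKM, with a ratio of 1.88 (1.71 to 2.08). The most abundant were glutamine synthetase (Glul) at 161 and 148 RPKM and the branched-chain dehydrogenase gene Bckdha at 144 and 136 RPKM. Of 10 genes that govern carriers at the membrane 8 were listed, 3 over 2-fold higher (37.5%) and 1 lower (12.5%), against 8.02% and 20.1% of all coding genes. With so few genes these shares are a description only. Txnip, which drives internalisation of glucose carriers, stood at 345 RPKM in HFD cells and 105 in control cells, a ratio of 3.28 (3.16 to 3.40). Sgk1, a kinase that raises the surface level of several carriers, stood at 97.1 and 37.8 RPKM, a ratio of 2.57 (2.44 to 2.70). Cltrn, which brings Slc6 carriers to the membrane in the kidney, stood at 2.54 RPKM in HFD cells and was listed at 0 in control cells. The scaffold gene Slc9a3r1 was lower at 27.2 and 69.4 RPKM, with a ratio of 0.392 (0.363 to 0.423), and the ubiquitin ligase gene Nedd4 stood at 59.5 and 90.0 RPKM, a ratio of 0.661 (0.645 to 0.678).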

How the data were processed

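RNA was measured in 1 HFD and 1 control library of sorted parietal cells. Per the labels' protocols, rRNA was depleted and libraries were made with an Ion Total RNA-Seq kit. The authors deposited 1 value per Ensembl gene, named RPKM in the header. They were taken as log2 of RPKM, deposited by the authors with no pseudocount, because the highest was 18.22 and values times exon length fell on whole steps for 52.2% and 39.1% of the faintest single-exon genes (4% by chance; within 0.02 of a step). The step gave 25.5 and 9.84 M reads. For multi-exon coding genes 10.2% and 5.9% were whole, so read numbers and intervals are approximate. Per the submitters' processing notes, bedtools 2.25.0 was among the tools and mm10 the build. No aligner, counting rule or annotation is given in the sources used here.

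Symbols, positions and merged exon lengths came from GENCODE M21 (GRCm38, also called mm10), which matched 36308 identifiers. Differences are log2(HFD RPKM + 1) minus log2(control RPKM + 1), with a listed 0 entered as 0. Ratios are of RPKM without a pseudocount, with exact conditional binomial 95% intervals, and levels have exact Poisson intervals. Both cover counting error only, since PCR copies cannot be told from separate molecules here. With 1 library per diet there is no test and no p-value. Every carrier listed above 0 could be named, except 1 that is not reported here. Ratios were given at least for the 4 most abundant of each family and its extremes with 50 or more estimated reads. Further genes outside the carrier list were named for their role after their values were seen. Shared sequence was counted as transcript 50-mers found in another gene. The calculations were tested on simulated data. The carriers, gene lists and settings were chosen with earlier results of these data known. Python 3.11.15, pandas 2.3.3 and scipy 1.17.1 were used.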

Additional observations from a re-analysis of the deposited data

How the results depend on the processing

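The 6 carriers over 2-fold higher and 14 lower depended on how a 0 is entered. With a listed 0 entered as 1 RPKM and no pseudocount they were 3 and 6, with a minimum of 5 RPKM 2 and 3, with carriers listed in both libraries and no pseudocount 2 and 3 (2 and 2 with the pseudocount kept), and with the whole counting interval beyond 2-fold 2 and 2. At a threshold of 1.5-fold they were 13 and 17. On the trimmed scale, the sum of all but the 20 most abundant genes, they were 2 and 17 of 67. All coding genes gave 3.23% and 32.7% there. With coding genes brought to equal totals they were 9 and 14 of 67, against 12.4% and 17.2% of coding genes. The median of 0.02 was 0.27 at a minimum of 5 RPKM, -0.48 on the trimmed scale and 0.27 with coding genes brought to equal totals. The other alternatives (a pseudocount of 0.1 RPKM, scaling to the median ratio of coding genes, leaving out Slc7a6os) moved the counts to no more than 15 lower. Slc5a5, Slc6a20a, Slc7a5 and Slc38a7, over 2-fold different and listed in both libraries, kept their sign under every alternative run. For the 4 carriers listed in HFD cells alone and the 12 in control cells alone, the listed 0 fixes the sign, so no alternative could change it. The scalings to the median coding ratio, the trimmed sum and the coding total shifted the log2 HFD values by 0.04, -0.62 and 0.29. Depth limits the faint genes, since 1 RPKM of a 2 kb gene stood for about 51 reads in the HFD library but 19.7 in the control library. No paired analysis was possible because each diet has 1 library, and for the same reason no replicate could be left out.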
